A study of Mus musculus with 11 samples.

Results

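Neutrophil granule and extracellular trap genes were followed in RNA from mouse kidneys. The 10 genes were taken as listed symbols, and all 10 were found among the 25677 genes measured. They were Mpo and Elane of the azurophil granules, Ngp, Camp and Ltf of the specific granules, S100a8 and S100a9 of the cytosol, Padi4 of the trap-forming machinery, and the receptors Csf3r and Cxcr2. Kidneys came from female mice at 21 weeks of age, with 1 library for each mouse. The control group (Ctr) held 3 untreated C57BL/6J mice, the model group (Lpr) 4 untreated MRL/lpr mice, and the treated group (DNase) 4 MRL/lpr mice given DNase I daily into the peritoneum from week 17 on. MRL/lpr mice carry a mutation of the death receptor Fas and develop a lupus-like nephritis. Ctr mice lack both the mutation and the MRL background, so strain and disease cannot be told apart in a difference from Ctr. The study asked how digestion of extracellular DNA, the scaffold of neutrophil extracellular traps, alters the kidney transcriptome of these mice.

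Neutrophils fill their granules in a fixed order while they mature in the bone marrow. Transcripts of azurophil proteins are made at the promyelocyte stage, those of specific granule proteins at the myelocyte stage, and both are largely shut off in the mature cell, which keeps the cytosolic calcium-binding proteins S100a8 and S100a9 and the receptors Csf3r and Cxcr2. A trap is chromatin expelled from the cell after histones have been citrullinated by the enzyme Padi4, and it is decorated with the myeloperoxidase and elastase encoded by Mpo and Elane.

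The libraries held 33469858 to 38460873 counted reads each. At this depth each member was a sparse transcript, with at most 629 counts in any kidney, and a count of 3 or fewer is treated here as the floor of detection. Values are given as counts or as CPM, the count scaled to library size after TMM normalization. The labelled tissue was borne out by its markers, since the summed level of 8 kidney genes, such as the tubular Umod and Slc34a1, lay between 9623 and 15820 CPM in every library. Lpr replicate 3 stood apart from the other libraries. Its counts fell with gene length by a slope of -0.393 log2 units per doubling, against slopes between -0.0432 and 0.0775 in the other 10 kidneys. Fold changes of the members that rest on this kidney are therefore given with and without it. Those of the other listed genes are given with all kidneys only.

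Of the defining genes of mature neutrophils, Ly6g, Mrgpra2a and Mrgpra2b were at or near 0. Ly6g, the surface antigen by which mouse neutrophils are usually identified, had 0 counts in every Ctr kidney, 3, 1, 1 and 0 counts in the Lpr kidneys and 0, 3, 2 and 1 counts in the DNase kidneys. Mrgpra2a and Mrgpra2b had at most 2 counts in any kidney. The summed level of the 8 mature neutrophil markers was 2.31 to 3.86 CPM in Ctr, 1.11 to 4.86 CPM in Lpr and 0.753 to 1.98 CPM in DNase. The most abundant of them in each group was Asprv1, a protease also made by skin, with 59 to 124 counts in Ctr, 17 to 93 in Lpr and 10 to 36 in DNase. Leaving it out, a step chosen after its values were seen, the other 7 markers summed to 0.15 to 0.512 CPM in Ctr, 0.623 to 2.23 CPM in Lpr and 0.474 to 1.22 CPM in DNase. With Asprv1 the Ctr range lay within the Lpr range, and without it every Lpr kidney lay above every Ctr kidney. Retnlg, a resistin-like protein of neutrophils, had 1 to 8 counts in Ctr, 1 to 24 in Lpr and 2 to 23 in DNase. Of the 2 markers tested between Lpr and Ctr, 0 were called by edgeR or DESeq2 and 0 had an unadjusted p under 0.05. Between DNase and Ctr 1 of 2 tested was called, Asprv1, which was lower in DNase with a log2 fold change of -2.02 (SE 0.392, adjusted p = 0.00534 from edgeR). Fewer cells of a type and less RNA per cell cannot be told apart in RNA from whole kidneys.

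Per length of transcript, S100a9 and S100a8 were the most abundant members in every group. Mean FPKM of S100a9 was 2.82 ± 1.61 (SD, n = 3) in Ctr, 14.2 ± 7.74 in Lpr and 12.3 ± 4.64 in DNase (SD, n = 4 each). S100a8 followed with 1.34 ± 0.913 (SD, n = 3), 10.3 ± 4.65 (SD, n = 4) and 7.66 ± 3.10 FPKM (SD, n = 4) in the same groups, and its range overlapped that of S100a9 in each. In Ctr, Ngp came next with 0.852 ± 0.373 FPKM (SD, n = 3), and Padi4 and Cxcr2 were lowest at 0.0321 ± 0.0291 and 0.0299 ± 0.0116 FPKM (SD, n = 3). Csf3r stood at rank 6 in Ctr, at rank 4 in Lpr and at rank 3 in DNase, where it averaged 2.38 ± 0.572 FPKM (SD, n = 4). Neighbours in the order overlapped in every case in Ctr and Lpr. In DNase the order had only 2 gaps without overlap, between S100a8 and Csf3r and between Camp and Ltf.

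**Figure D1:**
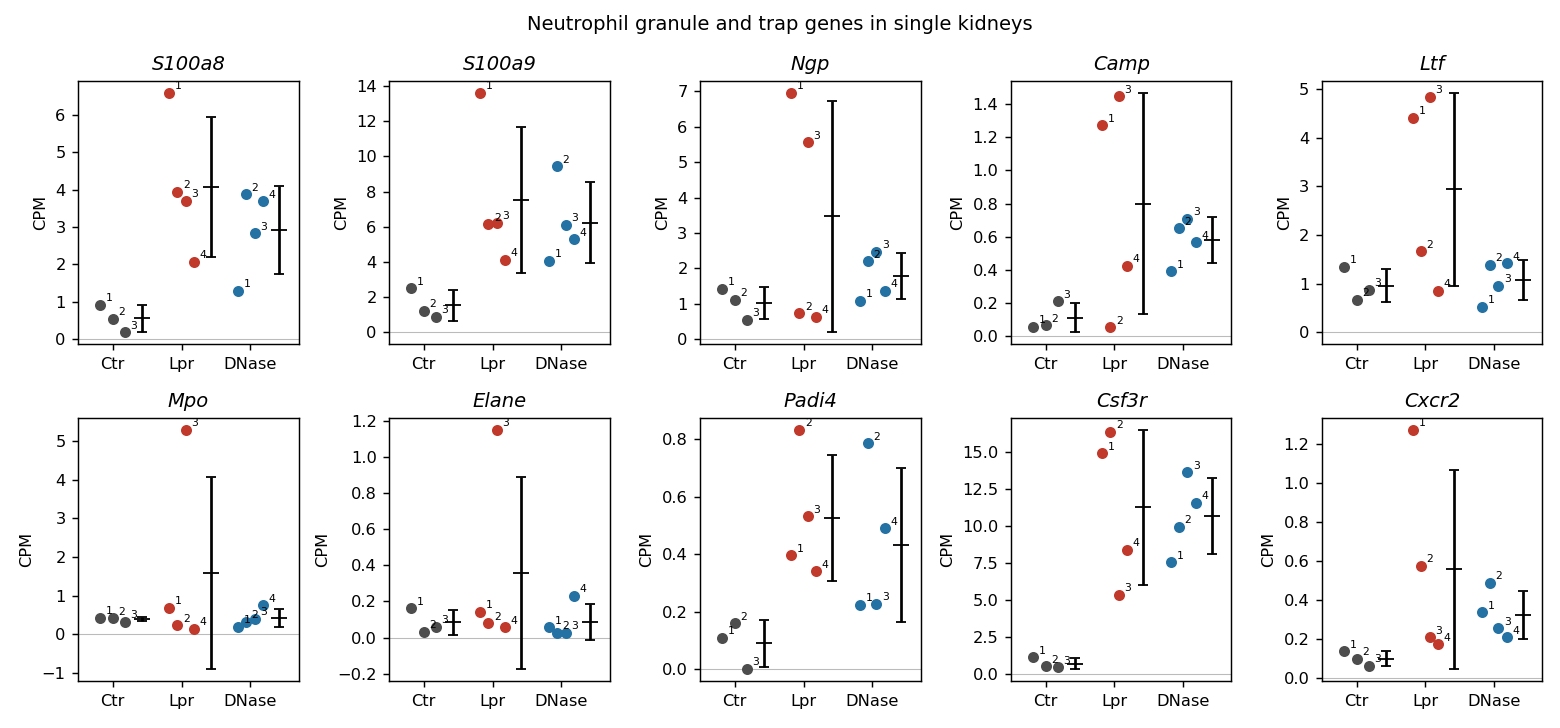
CPM of each of the 10 genes on a linear axis in single kidneys of the Ctr, Lpr and DNase groups, with the replicate number beside each point and the mean and SD to the right of each group. S100a8, S100a9 and Csf3r lie higher in every Lpr and DNase kidney than in any Ctr kidney, whereas the Lpr means of Mpo and Elane are carried by replicate 3.

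Between Lpr and Ctr kidneys, S100a8, S100a9 and Csf3r were called higher in Lpr. To be called, a gene had to reach an adjusted p under 0.05 in edgeR (Benjamini-Hochberg) with a log2 fold change beyond 2 in either direction. Of the 10 members, 8 had enough counts for the test and 3 were called higher, where 4.65% of the 16074 genes tested were called higher and 1.13% lower. No member was called lower. Of the 8 tested members the groups did not overlap for 4, S100a8, S100a9, Csf3r and Padi4. Among all tested genes, 14.2% had Lpr values that all lay above those of Ctr. The groups also did not overlap for Cxcr2, which was below the count filter and is outside that share. The 8 tested members had a median log2 fold change of 2.42, beside 0.03 over all tested genes, with a range from 1.62 to 3.97. Padi4 and Camp, with at most 7 counts in any Ctr kidney, passed the count filter through their Lpr counts. The median is therefore a description and favours genes that are high in Lpr.

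S100a8 and S100a9 encode the subunits of calprotectin, a zinc- and calcium-binding complex that makes up much of the neutrophil cytosol and is also made by monocytes. They lie 22.6 kb apart on chromosome 3, S100a8 on the forward strand at chr3:90668978-90670035 and S100a9 on the reverse strand at chr3:90692632-90695721 (GRCm38). S100a8 had 0.917, 0.542 and 0.180 CPM in the Ctr kidneys, 6.59, 3.93, 3.69 and 2.07 CPM in the Lpr kidneys and 1.28, 3.87, 2.82 and 3.68 CPM in the DNase kidneys. Every MRL/lpr kidney, treated or not, exceeded the highest Ctr kidney. S100a9 had 2.51, 1.21 and 0.869 CPM in Ctr, 13.6, 6.15, 6.21 and 4.13 CPM in Lpr and 4.07, 9.43, 6.10 and 5.28 CPM in DNase. The order of the groups was the same as for S100a8, with the highest value of both genes in Lpr replicate 1.

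S100a8 was 7.43-fold higher in Lpr than in Ctr, a log2 fold change of 2.89 (SE 0.597, adjusted p = 0.0167 from edgeR). S100a9 was 4.92-fold higher, a log2 fold change of 2.30 (SE 0.523, adjusted p = 0.0256 from edgeR). Single kidneys decided whether these calls were made. Without Ctr replicate 2 the adjusted p was 0.0723 for S100a8 and 0.109 for S100a9, and Csf3r was then the only member called. The call of S100a9 was also lost without Ctr replicate 3 (adjusted p = 0.10), without Lpr replicate 1, where the log2 fold change was 1.86, and after removal of the trend with gene length (log2 fold change 2.28, adjusted p = 0.0501).

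The sequences upstream of the pair are shown because these neighbours were both called and had closely matching levels across kidneys. Each run begins 250 bases before the start that RefSeq gives (GRCm38.p6) and is printed 5′ to 3′ on the strand of the gene, up to the first base that GENCODE M21 places in an exon. Capitals mark GAGGAA, the core read by the myeloid factor PU.1, or its reverse complement TTCCTC, and TTGCNNAA, the consensus letters of the C/EBP factors, or its reverse complement TTNNGCAA, where N is any base. The run for S100a8 spans chr3:90668821-90668977 and that for S100a9 chr3:90695722-90695971.
S100a8: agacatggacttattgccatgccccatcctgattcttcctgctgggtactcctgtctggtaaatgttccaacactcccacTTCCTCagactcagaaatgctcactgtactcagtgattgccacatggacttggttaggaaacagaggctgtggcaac
S100a9: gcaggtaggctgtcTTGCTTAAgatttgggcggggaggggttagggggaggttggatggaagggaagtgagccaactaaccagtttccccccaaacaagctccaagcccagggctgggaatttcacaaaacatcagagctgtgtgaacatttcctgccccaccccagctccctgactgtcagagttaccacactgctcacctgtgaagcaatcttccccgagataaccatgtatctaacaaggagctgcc
The S100a8 run held a PU.1 core and no C/EBP match, and the S100a9 run held a C/EBP match and no PU.1 core. Over the whole 250 bases, GAGGAA was found on either strand in 6 of the 10 members (Mpo, Elane, S100a8, Ltf, Csf3r and Cxcr2) and in 23.3% of 32851 RefSeq windows of the same length. TTGCNNAA was found on either strand in 3 of 10 (S100a9, Ngp and Ltf) and in 9.56% of all windows. The letters TATAAA, read on the sense strand, occurred in 2 of 10 (Padi4 and S100a8) and in 7.59% of windows. These matches describe letters and are not evidence of a bound factor.

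Csf3r, the receptor for granulocyte colony-stimulating factor that drives neutrophil production and survival, had the largest difference of the members. Its counts were 42, 17 and 16 in Ctr, 527, 629, 181 and 297 in Lpr and 271, 368, 541 and 450 in DNase. In CPM the means were 0.718 ± 0.360 (SD, n = 3), 11.3 ± 5.24 (SD, n = 4) and 10.7 ± 2.57 (SD, n = 4). All 8 MRL/lpr kidneys lay far above the Ctr kidneys, with the lowest Lpr value in replicate 3. Csf3r was 15.6-fold higher in Lpr than in Ctr, a log2 fold change of 3.97 (SE 0.528, adjusted p = 0.00223 from edgeR). It was called in all 7 fits that each left out 1 kidney. The gene occupies chr4:126024550-126044440 on the forward strand.

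Cxcr2, the receptor for neutrophil-attracting CXC chemokines (chr1:74153989-74161246, forward strand), was below the count filter between Lpr and Ctr. Its counts were 5, 3 and 2 in Ctr, 45, 22, 7 and 6 in Lpr and 12, 18, 10 and 8 in DNase. Every MRL/lpr kidney had more counts than any Ctr kidney, with a wide spread inside Lpr. An exact permutation test of log2(CPM + 0.1), two-sided, gave p = 0.0571 in both comparisons with Ctr, the smallest value that 3 against 4 kidneys allow. In Lpr against Ctr, edgeR gave a log2 fold change of 2.47 with all 3 groups in 1 fit, where Cxcr2 was called (adjusted p = 0.0462), and of 2.48 without the count filter, where it was not (adjusted p = 0.116).

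Padi4, the peptidylarginine deiminase that citrullinates histones during trap formation, lies on the reverse strand at chr4:140745865-140774236. Its counts were 4, 5 and 0 in Ctr, 14, 32, 18 and 12 in Lpr and 8, 29, 9 and 19 in DNase. The lowest Lpr or DNase kidney had more counts than the highest Ctr kidney. In Lpr against Ctr the log2 fold change was 2.54 (SE 0.774, 95% interval 0.78 to 4.30), and the adjusted p from edgeR was 0.0817, so that the gene was not called. It was called by DESeq2 (adjusted p = 0.0199) and by edgeR with all 3 groups in 1 fit (adjusted p = 0.0443). The study measured Padi4 by RT-PCR as well, and its primers are shown because they define which transcripts that assay reads. Both are 20 bases long.
forward: ccctgtcaagcgagttatgg
reverse: agtaaccgctattcccgatg
In the GENCODE M21 transcripts, this pair brackets 170 bases in 2 of the 4 annotated Padi4 transcripts.

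Ngp, Camp and Ltf, encoding neutrophilic granule protein, the antimicrobial peptide cathelicidin and the iron-binding lactoferrin, lie on chromosome 9 at chr9:110419747-110423012, chr9:109847379-109849617 and chr9:111019271-111042767, the outer 2 separated by 1169.7 kb. Ngp had 53, 35 and 18 counts in Ctr, 246, 28, 188 and 22 counts in Lpr and 39, 81, 98 and 53 counts in DNase. Camp had 2, 2 and 7 counts in Ctr, 45, 2, 49 and 15 in Lpr and 14, 24, 28 and 22 in DNase. Ltf had 50, 21 and 29 counts in Ctr, 156, 64, 164 and 30 in Lpr and 19, 51, 38 and 55 in DNase. For each of the 3 genes, Lpr replicates 1 and 3 were the highest of all 11 kidneys, and Lpr replicates 2 and 4 were lower. Added up, the 3 genes gave 12.6 and 11.9 CPM in Lpr replicates 1 and 3, 2.45 and 1.90 CPM in Lpr replicates 2 and 4, 1.62 to 2.83 CPM in Ctr and 2.01 to 4.23 CPM in DNase.

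None of the 3 specific granule members was called between Lpr and Ctr. The log2 fold changes were 1.76 for Ngp (95% interval -0.27 to 3.79, adjusted p = 0.312 from edgeR), 2.84 for Camp (0.47 to 5.22, adjusted p = 0.146) and 1.62 for Ltf (0.19 to 3.04, adjusted p = 0.171). Without Lpr replicate 3 they were 1.42 for Ngp and 1.26 for Ltf, and without Lpr replicate 1 they were 1.18 and 1.37. Camp fell below the count filter without Lpr replicate 1, 3 or 4. Camp was called by DESeq2 (adjusted p = 0.0394) and without Lpr replicate 2 (adjusted p = 0.0376 from edgeR). The sequence upstream of Ltf is shown as the run that carries both motifs, at chr9:111019042-111019270.
Ltf: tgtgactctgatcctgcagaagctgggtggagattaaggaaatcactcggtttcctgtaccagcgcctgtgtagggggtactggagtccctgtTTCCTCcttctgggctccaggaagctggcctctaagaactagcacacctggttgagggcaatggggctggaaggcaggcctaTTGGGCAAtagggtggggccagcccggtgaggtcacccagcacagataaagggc

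Mpo, the peroxidase that makes hypochlorous acid (chr11:87793581-87804413, forward strand), and Elane, neutrophil elastase (chr10:79886247-79888215, forward strand), differed between single Lpr kidneys more than between groups. Mpo had 16, 13 and 11 counts in Ctr, 24, 9, 179 and 5 counts in Lpr and 7, 12, 16 and 29 counts in DNase. Elane had 6, 1 and 2 counts in Ctr, 5, 3, 39 and 2 in Lpr and 2, 1, 1 and 9 in DNase. That Mpo stands out in Lpr replicate 3 was known when the genes were chosen and is given as a description. Outside Lpr replicate 3 the MRL/lpr kidneys overlapped the Ctr kidneys for both genes. The other genes of the azurophil list showed where this kidney stood. Prtn3, the serine protease proteinase 3, had 20, 4 and 7 counts in Ctr, 15, 24, 74 and 10 in Lpr and 5, 10, 9 and 6 in DNase. Ctsg, cathepsin G, had 6, 1 and 0 counts in Ctr, 0, 2, 29 and 1 in Lpr and 1, 2, 0 and 3 in DNase. Mpo, Elane, Prtn3 and Ctsg thus had their highest count in the same kidney. Ms4a3 and Bpi, also on this list, had 2 and 0 counts there.

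In Lpr against Ctr, Mpo had a log2 fold change of 2.02 (95% interval -0.67 to 4.71, adjusted p = 0.387 from edgeR). Without Lpr replicate 3 it was -0.16. Elane was below the count filter, and the exact permutation test gave p = 0.457. The summed azurophil list reached 9.54 CPM in Lpr replicate 3, against 0.538 to 1.30 CPM in the other Lpr kidneys and 0.446 to 1.35 CPM in the Ctr and DNase kidneys. In the same kidney the 8 erythroid markers summed to 2749 CPM, with 727 to 1622 CPM in the other Lpr kidneys, and the trend with gene length described above was found. Their part in the azurophil values was not tested. Exons of Mpo share 512 bases with Gm11505 on the opposite strand, and the strand setting of the counting is not given in the sources used here, so that reads of this stretch cannot be assigned.

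The sequences upstream of Mpo (chr11:87793534-87793580) and Elane (chr10:79886062-79886246) are shown because the 2 genes peaked together. Both carry the PU.1 core in capitals, and Mpo carries it in 2 places.
Mpo: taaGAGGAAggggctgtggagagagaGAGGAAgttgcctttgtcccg
Elane: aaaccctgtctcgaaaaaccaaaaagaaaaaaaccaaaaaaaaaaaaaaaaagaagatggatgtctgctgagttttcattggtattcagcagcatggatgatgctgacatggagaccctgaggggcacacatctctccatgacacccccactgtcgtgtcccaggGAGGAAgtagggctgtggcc

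**Figure D2:**
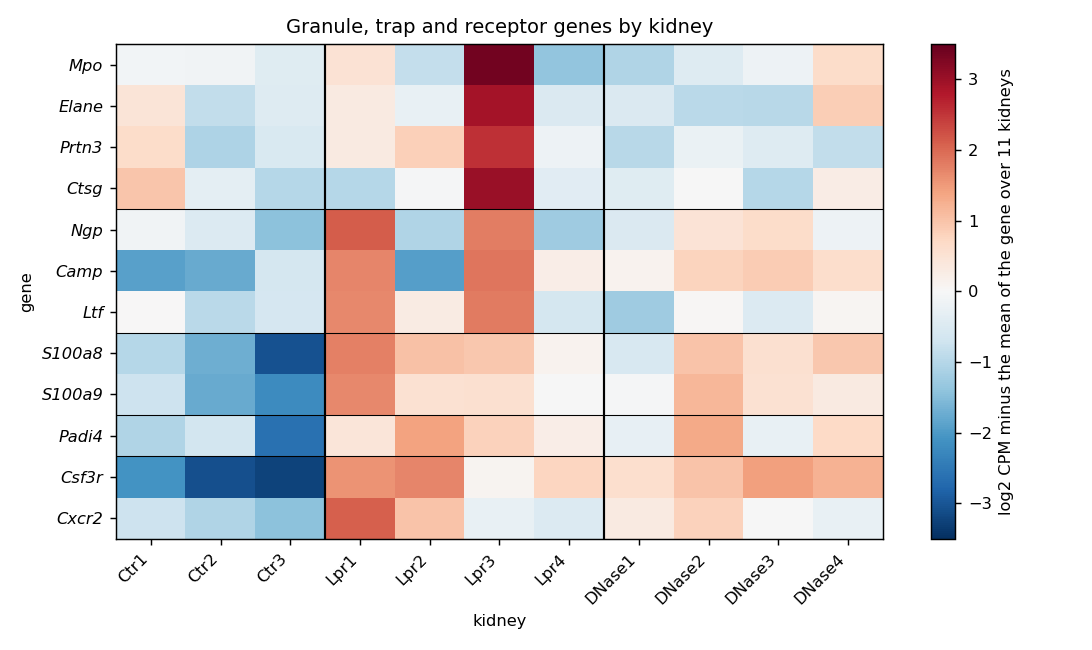
Log2 CPM of 12 genes (rows) in 11 kidneys (columns), shown as the difference from the mean of each gene over all kidneys, with red above and blue below that mean. The azurophil genes in the top block are high in Lpr3, the specific granule genes in the block beneath are high in Lpr1 and Lpr3, and S100a8, S100a9 and Csf3r are low in the Ctr columns.

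Between DNase and Lpr kidneys no member was called. Of the 10 members 9 were tested and 0 called by edgeR, where 0% of the 15832 genes tested were called higher and 0% lower. DESeq2 and limma called no member either. At an unadjusted p under 0.05 there was 1 member, Ltf, and there were 886 genes in all. Values of the groups overlapped for all 10 members, while 1.68% of tested genes had every DNase kidney below every Lpr kidney. Over the whole table DESeq2 called 4 genes, Pax5 higher and Clec3b, F13a1 and Mchr1 lower in DNase, named here after their values were seen.

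The estimate was below 0 for each of the 9 tested members, with a median log2 fold change of -0.48 beside -0.02 over all tested genes. The members share the same kidneys, so that their signs are not independent. Csf3r had the narrowest interval. Its log2 fold change was -0.08 (95% interval -0.84 to 0.68), and its sign was positive without Lpr replicate 1, Lpr replicate 2 or DNase replicate 1. S100a8 had a log2 fold change of -0.48 (-1.41 to 0.44) and S100a9 of -0.28 (-1.14 to 0.58), the latter at 0.17 without Lpr replicate 1. Padi4 had a log2 fold change of -0.29 (-1.41 to 0.82), and 0.015 without Lpr replicate 2. Cxcr2, which passed the count filter here, had a log2 fold change of -0.79 (-2.22 to 0.63), and -0.0051 without Lpr replicate 1.

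The specific granule members varied widely among the Lpr kidneys. Ltf averaged 2.94 ± 1.98 CPM in Lpr and 1.07 ± 0.417 CPM in DNase (SD, n = 4 each). Its log2 fold change was -1.46 (95% interval -2.71 to -0.21), with an unadjusted p of 0.0261 from edgeR and an adjusted p of 0.85. Without Lpr replicate 3 it was -1.11 with an unadjusted p of 0.0743. Ngp averaged 3.46 ± 3.27 and 1.78 ± 0.659 CPM (SD, n = 4), a log2 fold change of -0.97 (-2.61 to 0.68), and -0.64 without Lpr replicate 3. Camp averaged 0.799 ± 0.669 and 0.578 ± 0.138 CPM (SD, n = 4), a log2 fold change of -0.47 (-2.06 to 1.13). Without Lpr replicate 3 the value for Camp was -0.0056, and Camp was nearly as high in Lpr replicate 1 (45 counts) as in replicate 3 (49 counts). With each kidney left out in turn, Ngp ranged from -1.31 to -0.39 and Camp from -0.87 to -0.0056. The SD of these 3 genes was larger in Lpr than in DNase, where no kidney matched Lpr replicates 1 and 3.

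Mpo averaged 1.59 ± 2.48 CPM in Lpr and 0.418 ± 0.236 CPM in DNase (SD, n = 4 each). The log2 fold change was -1.93 (95% interval -4.25 to 0.40, adjusted p = 0.854 from edgeR). It was 0.25 without Lpr replicate 3, so that its direction rested on this kidney. Elane averaged 0.357 ± 0.531 and 0.0850 ± 0.0989 CPM (SD, n = 4), and gave p = 0.314 in the exact permutation test, whose smallest value with 4 against 4 kidneys is 0.0286.

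**Figure D3:**
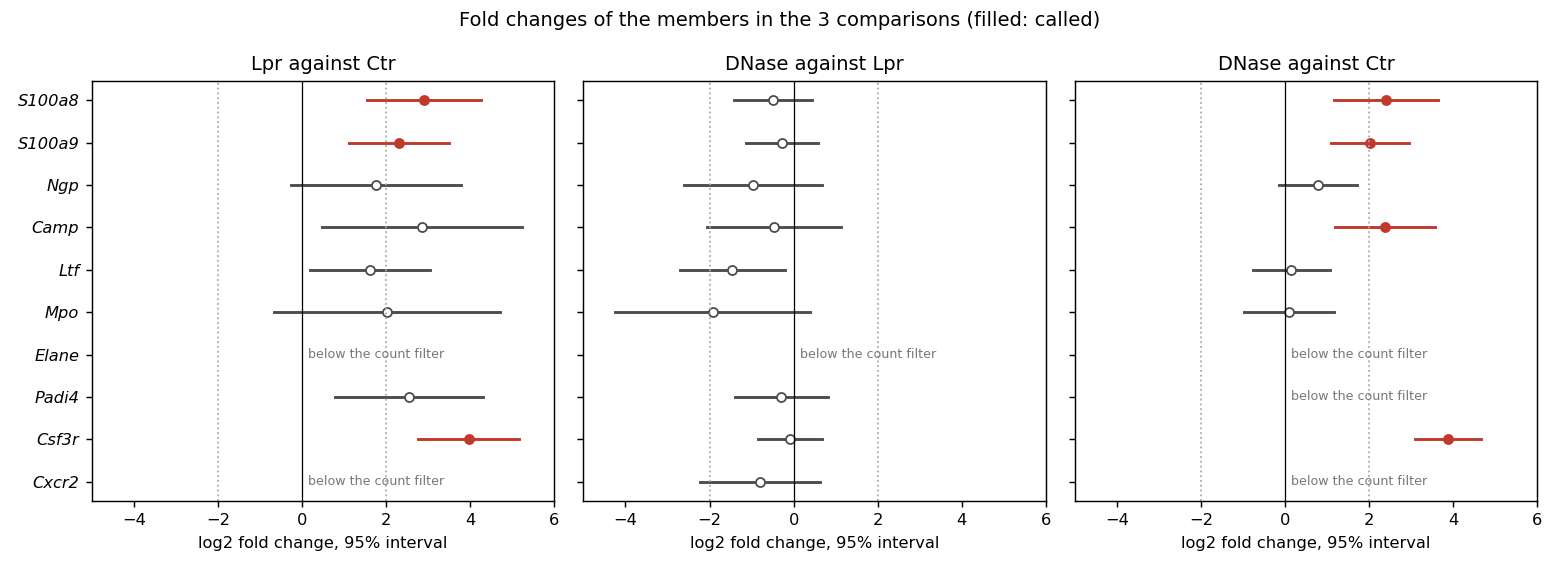
Log2 fold change (horizontal axis) of each member in the 3 comparisons with its 95% interval from edgeR, filled red where the gene was called, with dotted lines at the fold threshold. The intervals of S100a8, S100a9, Csf3r and Camp lie above 0 in both comparisons with Ctr, and the interval of Ltf alone lies below 0 between DNase and Lpr, where no member was called.

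**Figure D4:**
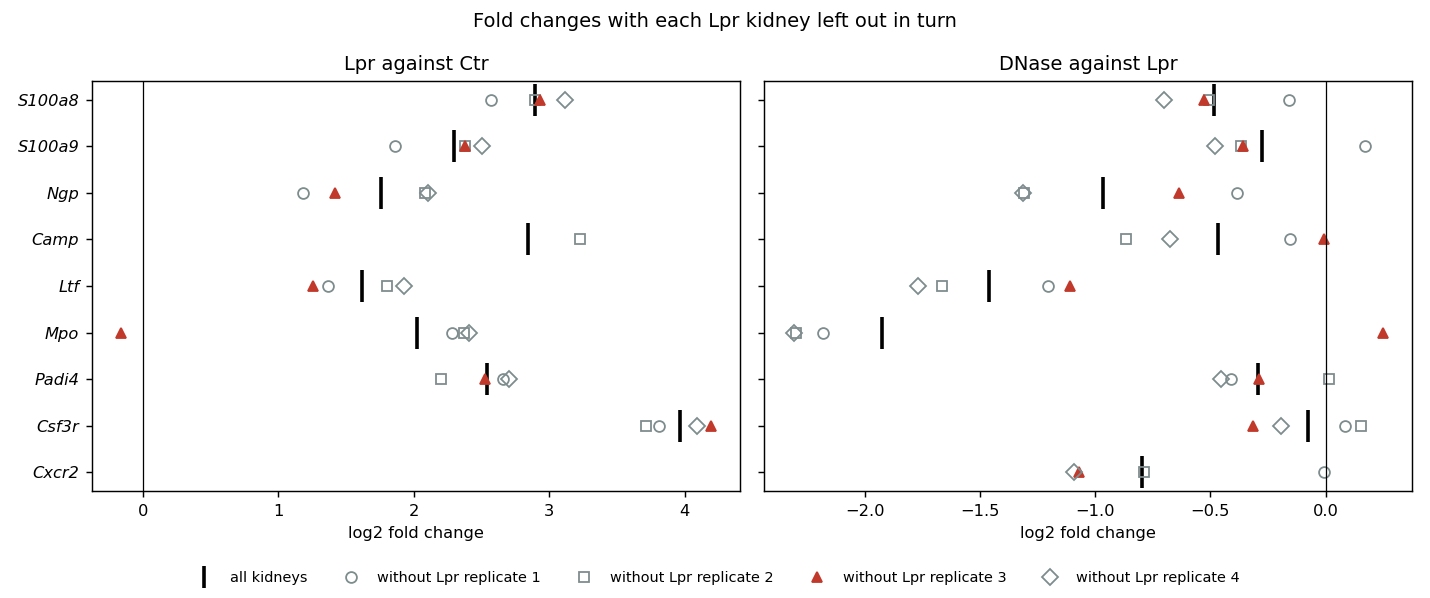
Log2 fold change (horizontal axis) of 9 members with all kidneys (black bar) and with each Lpr kidney left out in turn (symbols), where a symbol is missing if the gene then fell below the count filter. Mpo moves from 2.02 to -0.16 between Lpr and Ctr and from -1.93 to 0.25 between DNase and Lpr without replicate 3, while Csf3r and S100a8 keep their sign in the comparison with Ctr.

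Between DNase and Ctr kidneys, S100a8, S100a9, Camp and Csf3r were called higher in DNase. Of the 10 members 7 were tested and 4 were called, where 4.56% of the 16100 genes tested were called higher and 1.45% lower. Of the 7 tested members the groups did not overlap for these 4, against 18.2% of tested genes with every DNase kidney above every Ctr kidney. The groups also did not overlap for Padi4 and Cxcr2, which were below the count filter and are outside that share. The Ctr kidneys are those of the comparison of Lpr with Ctr, so the values of the 2 comparisons are not independent.

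Csf3r was 14.7-fold higher in DNase than in Ctr, a log2 fold change of 3.88 (SE 0.345, adjusted p = 6.51e-05 from edgeR). S100a8 was 5.28-fold higher, a log2 fold change of 2.40 (SE 0.545, adjusted p = 0.0123). S100a9 had a log2 fold change of 2.02 (SE 0.411, adjusted p = 0.00708), close to the threshold, and without Ctr replicate 2, Ctr replicate 3 or DNase replicate 2 it lay at 1.87, 1.73 and 1.74. S100a8 lay at 1.98 without Ctr replicate 3. Camp averaged 0.109 ± 0.0873 CPM (SD, n = 3) in Ctr and 0.578 ± 0.138 CPM (SD, n = 4) in DNase. Its log2 fold change was 2.38 (SE 0.531, adjusted p = 0.0111), and the adjusted p was 0.138 with all 3 groups in 1 fit. Camp passed the count filter here through its DNase counts. That Camp passed the threshold in DNase and not in Lpr does not show a difference between these groups, whose own comparison is given above.

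For the remaining tested members the intervals between DNase and Ctr spanned both directions, which does not show that they equalled Ctr. Mpo had a log2 fold change of 0.10 (95% interval -0.97 to 1.16), Ltf of 0.15 (-0.76 to 1.06) and Ngp of 0.79 (-0.14 to 1.72), none of them called by edgeR. Elane had a mean of 0.0845 ± 0.0684 CPM (SD, n = 3) in Ctr and 0.0850 ± 0.0989 CPM (SD, n = 4) in DNase, with p = 0.857 from the exact permutation test.

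Other genes of the same processes were read from lists drawn up with earlier results of these data known. Counts of called genes in these lists are to be read beside the share of all tested genes called higher. That share was 4.65% between Lpr and Ctr and 4.56% between DNase and Ctr. Of the specific granule list, 8 of 9 genes were tested between Lpr and Ctr, and Lcn2 and Pglyrp1 were called higher. Lcn2, lipocalin 2, which injured tubules also make, had a log2 fold change of 3.92 (SE 0.999, adjusted p = 0.0408 from edgeR), with means of 4.38 ± 2.82 (SD, n = 3), 65.5 ± 64.5 (SD, n = 4) and 12.7 ± 2.89 CPM (SD, n = 4) in Ctr, Lpr and DNase. Pglyrp1, a peptidoglycan-binding granule protein, had 11, 2 and 9 counts in Ctr, 47, 120, 132 and 72 in Lpr and 45, 89, 103 and 101 in DNase, a log2 fold change of 3.60 in Lpr (SE 0.61, adjusted p = 0.00663). Of the gelatinase granule list, 1 of 3 tested genes was called, the metalloprotease-disintegrin Adam8 with a log2 fold change of 3.84 (SE 0.718, adjusted p = 0.0105). Of the azurophil list, 2 of 6 genes were tested, with 0 called by edgeR or DESeq2 and 0 at an unadjusted p under 0.05. Of the cytosol list 4 of 8 were tested, and S100a8 and S100a9 were the 2 genes called.

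Of the trap formation list, 10 of 12 genes were tested between Lpr and Ctr and 5 were called higher, beside 4.65% of all genes tested. Among them were the NADPH oxidase subunits Cybb, Ncf1 and Ncf4, with log2 fold changes of 2.73, 2.68 and 3.63, and the GTPase Rac2 with 3.10. Gsdmd, which encodes the pore-forming gasdermin D, had a log2 fold change of 1.97 (SE 0.244, adjusted p = 0.0017) and so stayed just under the fold threshold. Of the trap clearance pair, Dnase1l3 was called higher with a log2 fold change of 4.04 (SE 0.407, adjusted p = 0.000713). Dnase1, the gene of the endogenous counterpart of the injected enzyme, averaged 411 ± 111 CPM (SD, n = 3) in Ctr, 119 ± 64.2 in Lpr and 246 ± 67.9 in DNase (SD, n = 4 each). Its log2 fold change in Lpr was -1.78 (SE 0.443, adjusted p = 0.0371 from edgeR), short of the fold threshold, and between DNase and Lpr it was 1.04 (SE 0.398, adjusted p = 0.85).

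Of the receptor list, 11 of 13 genes were tested between Lpr and Ctr and 8 were called higher, beside 4.65% of all genes tested. Among the 8 were Csf3r, Fpr1, Fpr2, C5ar1, Trem3, Clec4d and Clec4e. Fpr2, a receptor for formylated peptides, had 8, 1 and 2 counts in Ctr and 97, 214, 345 and 213 in Lpr. Clec4e, the C-type lectin Mincle, had 2 counts in each Ctr kidney and 61, 135, 479 and 181 counts in Lpr. Most of these receptors are shared by monocytes. Of the ligand list, 4 of 6 genes were tested, with 0 called by edgeR, 1 at an unadjusted p under 0.05 and 1 called by DESeq2, in each case Cxcl1. Cxcl1, a ligand of Cxcr2, had 14, 15 and 23 counts in Ctr, 15, 521, 128 and 40 in Lpr and 18, 31, 9 and 34 in DNase, with a log2 fold change of 3.21 in Lpr (SE 1.11, adjusted p = 0.122 from edgeR). The highest Cxcl1 kidney, Lpr replicate 2, was not the highest for any granule member, but it was the highest for Csf3r (629 counts) and Padi4 (32 counts). Csf3, the ligand of Csf3r, had at most 2 counts in any kidney and was named after its values were seen. Of the granulopoiesis factors 6 of 7 were tested and 3 called higher. These were Spi1, which encodes PU.1, with a log2 fold change of 2.57 (SE 0.258, adjusted p = 0.000713), Gfi1 with 2.50 (SE 0.586, adjusted p = 0.0288) and Myb, which had 2, 0 and 3 counts in Ctr and 15, 129, 12 and 62 in Lpr.

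Between DNase and Lpr no gene of these 9 lists was called by edgeR or DESeq2. Among all 15832 genes tested, 886 had an unadjusted p under 0.05 from edgeR, and the list counts below are to be read against that share. At an unadjusted p under 0.05 there were 2 of 9 tested specific granule genes (Ltf and Lcn2), 1 of 2 azurophil genes (Prtn3), 1 of 12 receptors, 1 of 2 ligands (Cxcl1), 2 of 6 granulopoiesis factors, 1 of 2 trap clearance genes, and 0 of the 10 trap formation, 3 gelatinase granule and 4 cytosol genes. Prtn3 had a log2 fold change of -2.14 (unadjusted p = 0.0102 and adjusted p = 0.82 from edgeR), with 0.139 to 0.271 CPM in DNase against 0.283 to 2.19 CPM in Lpr. The groups did not overlap in CPM, but the highest DNase kidney and the lowest Lpr kidney both had 10 counts. Its highest count in Lpr, 74, was that of replicate 3, and the value without that kidney is not given here. Cxcl1 had a log2 fold change of -2.95 (unadjusted p = 0.012 and adjusted p = 0.82 from edgeR). Cebpb, a granulopoiesis factor named after its values were seen, had a log2 fold change of -1.56 (unadjusted p = 0.0063 and adjusted p = 0.82 from edgeR), with every DNase kidney below every Lpr kidney. The same held for 1.68% of all genes tested. Between DNase and Ctr, 8 of 11 tested receptors, 5 of 9 tested trap formation genes, 2 of 8 tested specific granule genes and 3 of 6 tested granulopoiesis factors were called higher. Of all genes tested there, 4.56% were called higher.

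Markers of monocytes, T cells and B cells were also higher in the MRL/lpr kidneys. The share of all tested genes called higher was 4.65% between Lpr and Ctr and 4.56% between DNase and Ctr. Of the monocyte and macrophage list, 10 of 10 genes were tested between Lpr and Ctr and 6 were called higher, and the list summed to 179 to 222 CPM in Ctr, 697 to 1311 CPM in Lpr and 557 to 1019 CPM in DNase. The most abundant of them in Lpr and DNase was C1qa, a complement component made by macrophages, with a log2 fold change of 3.44 (SE 0.323, adjusted p = 0.000608 from edgeR). All 5 T cell markers were called higher, with sums of 2.61 to 4.23 CPM in Ctr, 30.0 to 88.0 CPM in Lpr and 31.0 to 57.7 CPM in DNase. Of the 5 B and plasma cell markers 3 were called in Lpr and 5 in DNase. In Lpr against Ctr, 0 of the 8 kidney markers were called by edgeR or DESeq2 and 0 had an unadjusted p under 0.05. Of the 3 platelet markers tested there, 0 were called by either tool and 1 had an unadjusted p under 0.05. Of the 6 erythroid markers tested, 5 had a log2 fold change above 0 in Lpr and 4 an unadjusted p under 0.05, with a median of 1.17. The 1 called was the globin gene Hba-a2, at -3.24. Its paralogue Hba-a1 lay at 1.82 and missed the call (adjusted p = 0.0549 in edgeR), and reads that these near-identical genes share could be split between them. Of the 2 eosinophil, basophil and mast cell markers tested 1 was called higher, Prg2, the eosinophil major basic protein. Between DNase and Lpr, F13a1 of the monocyte list was the only marker called by DESeq2, and edgeR called 0, with 2 of 10 monocyte markers at an unadjusted p under 0.05. The part of these cell types in the values of S100a8, S100a9, Csf3r and Padi4 was not tested. Nor was their part in the trap formation list, such as Cybb, Ncf1, Ncf4 and Rac2, or in the receptor list.

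**Figure D5:**
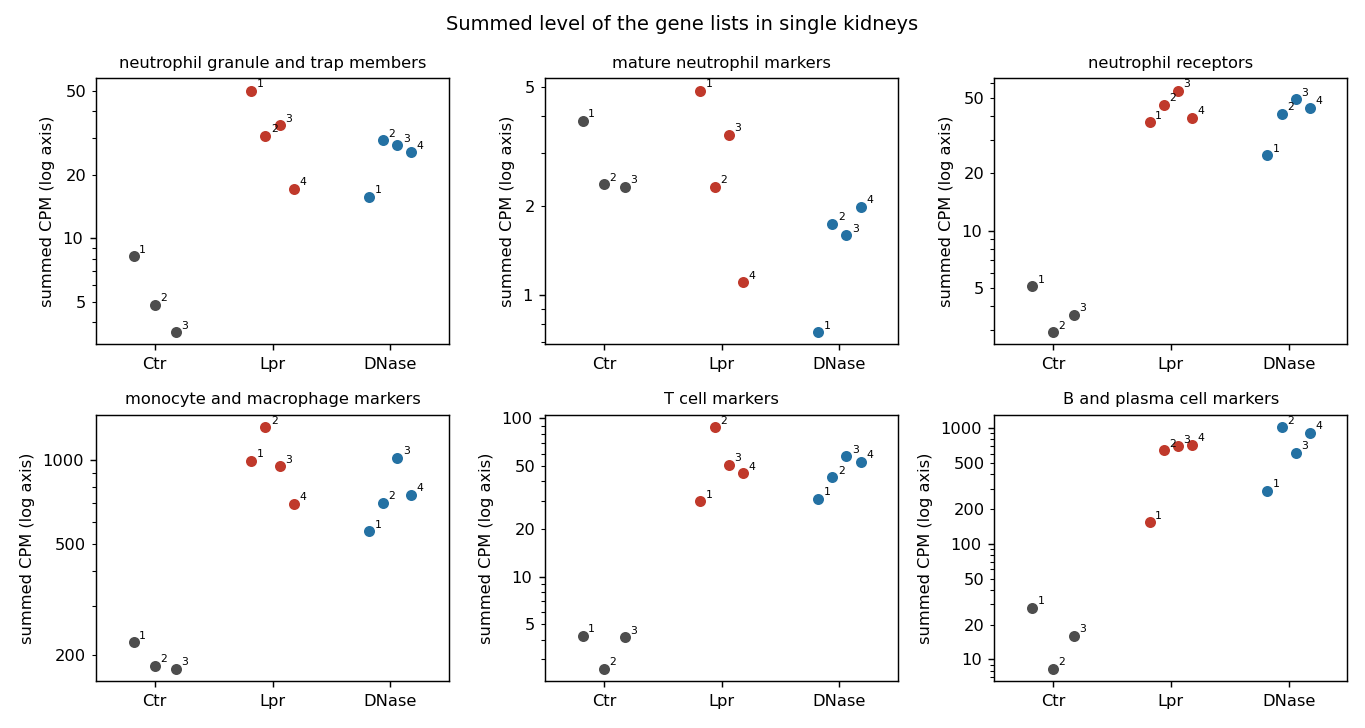
Summed CPM of 6 gene lists in single kidneys on log axes, with the replicate number beside each point. The members, the receptors and the monocyte, T cell and B cell lists lie higher in every Lpr and DNase kidney than in any Ctr kidney, whereas the mature neutrophil markers range from 2.31 to 3.86 CPM in Ctr and from 0.753 to 1.98 CPM in DNase, an order that Asprv1 sets and that turns without it (0.15 to 0.512 CPM in Ctr and 0.474 to 1.22 CPM in DNase).

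The genes most like each member were taken by Pearson's r of log2 CPM over the 11 kidneys, among 16499 other genes. Elane was below the count filter over the 3 groups and was left out. This is a description without a test, since the kidneys form groups of different level and share depth and tissue composition. Csf3r was most like Cd22 (r = 0.997), Was (0.995) and Cd101 (0.994). S100a8 was most like Slc51a (r = 0.976), Dpep2 (0.968) and S100a9 (0.968), and S100a9 in turn was most like S100a8, Pilrb1 (0.959) and Dse (0.953). Padi4 was most like Gm32287 (r = 0.923), Gimap8 (0.917) and Gm38745 (0.912), and Cxcr2 most like Mmp25 (0.954), Ppt1 (0.937) and Cd248 (0.93).

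For Mpo the likeness rested in part on Lpr replicate 3. The most similar genes were Coprs (r = 0.969), Ciao2b (0.967) and Blmh (0.959), and without that kidney these values were 0.925, 0.888 and 0.811. Between Mpo and Elane r was 0.888 with all kidneys and 0.559 without Lpr replicate 3. Among the specific granule members, Ngp was most like Trmt12 (r = 0.891), Eef1akmt4 (0.873) and Gm14296 (0.872), Camp most like Trmt1l (0.922), B3galt4 (0.918) and Pdxp (0.918), and Ltf most like Kifc1 (0.934), Ube2c (0.914) and Fkbpl (0.909). None of the 3 genes nearest to a granule member was itself a granule gene of the lists used here.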

How the data were processed

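RNA-seq libraries from 11 kidneys were compared as 3 Ctr, 4 Lpr and 4 DNase, as titled in the labels. The authors deposited whole-number gene counts without normalization, made from paired-end reads with fastp and HTSeq on mm10 according to the submitters' processing notes, and FPKM values made from these counts. The study's methods name HTSeq for placing the reads on genes. A separate aligner, the annotation and the strand setting are not given in the sources used here. All columns were assigned to samples, so that 0 were unused. The members and the gene lists were chosen with earlier results of these data known.

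Groups were compared in pairs with edgeR 4.0.16 in R 4.3.3 by the quasi-likelihood test after filterByExpr and TMM normalization, with only the libraries of the 2 groups in a fit and Benjamini-Hochberg adjustment over all genes tested. The fold threshold is that of the study's methods, which name DESeq2, so DESeq2 1.42.0 was an alternative, as was limma 3.58.1 on log2(FPKM + 1). Intervals are at 95% and come from the same fit. Log2 CPM used a prior count of 2, and exact permutation tests used log2(CPM + 0.1). Named genes are mainly the 10 members, the called genes of each list or the 3 most abundant, and the 3 genes most like each member past the count filter. Gsdmd, Dnase1, Ctsg, Ms4a3, Bpi and some marker genes were named outside this rule. Replicates are kidneys of separate mice as the study describes them. As a check for a library deposited more than once, pairs of libraries within a group were compared, and none matched within sampling noise (chi-square of 17.5 to 393 for each degree of freedom).

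On simulated data, with 200 genes given a log2 fold change of 3, the test recovered 178 with 4 false calls among 16074 genes between Lpr and Ctr, 194 with 3 false calls among 15832 between DNase and Lpr, and 191 with 0 false calls among 16100 between DNase and Ctr. The 200 genes were drawn at random from those tested. Recovery of smaller changes, or of sparse genes such as the members, was not checked separately. Upstream sequences are from RefSeq on GRCm38.p6, which is mm10, and matched all 10 members by symbol. Exons are from GENCODE M21. Further alternatives used another normalization, count filter or threshold, fitted all 3 groups at once, added the replicate number as a block or a trend with gene length, and left out 1 kidney at a time. Protein sequences were not analysed here. Some genes of the lists are counted but not reported here by name.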

Additional observations from a re-analysis of the deposited data

Results flagged for a closer look

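In Lpr, replicate 3 stood apart for Mpo, with a gap to the nearest kidney of 0.896 of the group's range, for Elane with 0.923, and for the summed azurophil list with 0.915. In DNase, replicate 4 stood apart for Elane with 0.852, at 9 counts against 1 to 2 counts in the other 3 kidneys. In Lpr, replicate 1 stood apart for the summed B and plasma cell markers with 0.862, at 154 CPM against 642 to 720 CPM in the other 3 kidneys. Each of these exceeds Dixon's limit for 4 samples. For normally distributed values chance alone exceeds it in about 1 of 20 groups. That rate need not hold for CPM of sparse genes. Of 20 groups of member values 3 exceeded it. Mpo in Lpr, known beforehand, is among them, so this count is not set against chance. Of 34 groups of summed lists 2 exceeded it, where that rate would give 1.7. The results of Lpr replicate 3 are not separate, since Mpo and Elane belong to the azurophil list, and that Mpo stands out in this kidney was known when the genes were chosen, so that its value is a description. The cause was not tested.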

How the results depend on the processing

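Of 440 alternative values of the members' log2 fold changes, 395 kept their direction and their side of the threshold, 23 lost and 4 gained a call, and 18 changed sign. Between Lpr and Ctr the total of called genes was 929, and it moved by over 1.5 times without the fold threshold (1639) and with limma on log2(FPKM + 1) (213), log2(FPKM + 0.1) (565) and log2(FPKM + 1) without a filter (204). The members called were 3, and 5 with DESeq2, 5 with all 3 groups in 1 fit, 1 with log2(FPKM + 1) and 1 with log2(FPKM + 1) without a filter. Leaving out each kidney gave 663 to 969 genes and 1 to 4 members. Between DNase and Lpr the total was 0, and 4 with DESeq2. Leaving out each kidney gave 0 genes and 0 members. Between DNase and Ctr the total was 967, and 625 with a mean CPM of at least 1, 3493 without the fold threshold, 190 with log2(FPKM + 1) with or without a filter and 549 with log2(FPKM + 0.1). The members called were 4, and 0 with log2(FPKM + 1) with or without a filter. Leaving out each kidney gave 869 to 1042 genes and 2 to 4 members, with 2 without Ctr replicate 3. The fold changes on the log2(FPKM + 1) scale understate those of low genes.

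The sign of a log2 fold change turned as follows. Between Lpr and Ctr, Mpo ranged from -0.16 without Lpr replicate 3 to 2.41 over the kidneys left out. Between DNase and Lpr, Csf3r was at 0.024 with log2(FPKM + 1), with or without a filter, and 0.067 with log2(FPKM + 0.1). With kidneys left out it ranged from -0.31 to 0.15, at 0.085 without Lpr replicate 1, 0.15 without Lpr replicate 2 and 0.058 without DNase replicate 1. Camp was at 0.17 with log2(FPKM + 0.1). S100a9 ranged from -0.55 to 0.17 without Lpr replicate 1, Padi4 from -0.74 to 0.015 without Lpr replicate 2 and Mpo from -2.37 to 0.25 without Lpr replicate 3. Between DNase and Ctr, Ltf ranged from -0.053 without Ctr replicate 2, with -0.0083 without DNase replicate 4, to 0.47, and Mpo from -0.34 without DNase replicate 4, with -0.020 without Ctr replicate 3, to 0.33. The cause was not tested.

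Kidneys of the same replicate number had correlations between -0.277 and 0.158 in their deviations from the group means. Those of different number ranged from -0.29 to 0.368. In groups this small these values cannot decide whether the numbers pair the mice, and the main fits used no pairing. With the replicate number as a block, 892 genes and 3 members were called between Lpr and Ctr, 0 and 0 between DNase and Lpr, and 849 and 3 between DNase and Ctr. In that fit Csf3r was at 0.012 between DNase and Lpr, and Mpo at -0.37 and Ltf at -0.041 between DNase and Ctr. Depth limits Elane, Cxcr2 and Padi4, each of which was below the count filter in at least 1 of the 3 comparisons.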

Other observations

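The ratio of S100a8 to S100a9, both in FPKM, was 0.277 to 0.598 in Ctr, 0.647 to 0.855 in Lpr and 0.421 to 0.933 in DNase. Lpr and Ctr did not overlap in this ratio, and DNase overlapped both. The ratio of Csf3r to S100a9, also in FPKM, was 0.0506 to 0.0624 in the 3 Ctr kidneys, 0.0975 to 0.301 in the Lpr kidneys and 0.12 to 0.253 in the DNase kidneys, so that every MRL/lpr kidney had more Csf3r for its S100a9 than any Ctr kidney. These ratios were looked at after the values of the genes were known, and no test was made.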
